A study of Homo sapiens with 28 samples.

Results

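Gene expression was compared between wild-type MDST8 cells and LoVo cells labelled as carrying an shRNA against TWIST1, with 3 RNA-seq libraries on each side. These 6 libraries of the 28 samples of the series were chosen by their labels alone, by joining the count table of each line on the gene identifier. MDST8 is a human colorectal cancer line of the mesenchymal subtype CMS4, and its libraries (replicates A, B and C) were labelled colon, wild type, with no treatment. LoVo is a human colorectal cancer line that the study used as its non-CMS4 line, and its libraries (replicates 1, 2 and 3) were labelled colon, TWIST1 knockdown, treated with TWIST1 shRNA, which was delivered by lentivirus. The labels do not say which hairpin each LoVo replicate carried, and both lines were grown in DMEM with fetal bovine serum. Poly(A) RNA was turned into dUTP libraries and sequenced on a NovaSeq 6000. Another group, 3 LoVo libraries with an shRNA control (labelled wild type), is given beside the comparison as context, and it shared the model fit.

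The labels and the TWIST1 counts of LoVo went in opposite directions. The LoVo libraries labelled TWIST1 shRNA held 73, 89 and 93 TWIST1 counts, and the LoVo shRNA control libraries held 0 in each. The study describes checks of its LoVo knockdown by qRT-PCR and western blot, which were not examined here. The LoVo group is therefore named by its label throughout, written LoVo TWIST1 shRNA, and no statement here depends on TWIST1 having been lowered in it. The 2 LoVo groups also differed widely from each other. Of 14586 genes tested, 3916 were called higher in LoVo TWIST1 shRNA and 3558 in LoVo shRNA control. Chromosome medians of log2 fold change between them ran from −0.53 (chromosome 12) to 0.39 (chromosome 8). The cause was not tested, nor was the identity of either line beyond its label. Line, count table and lentiviral transduction all changed together between the 2 groups, so their parts in any difference cannot be told apart. The labels do not say whether replicates were separate cultures, so p-values measure only the spread between these libraries.

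Epithelial cells are held in sheets by E-cadherin, tight junctions and desmosomes, and epithelial-mesenchymal transition (EMT) is the programme in which these contacts are lost and vimentin filaments, N-cadherin and matrix proteins take their place. TWIST1 is a basic helix-loop-helix factor of that programme, which binds E-box DNA as a dimer with E proteins, often at the sequence CATCTG, while the zinc-finger factors of the SNAI and ZEB families bind the E-box CAGGTG and repress epithelial genes. In colorectal cancer, CMS4 tumours are those with mesenchymal and matrix gene expression, whereas the colon epithelium from which such tumours arise is specified by CDX and HNF4 factors.

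The libraries held 18502364 to 19382787 counts in MDST8 WT and 16567606 to 18848314 in LoVo TWIST1 shRNA. Spearman correlations across genes, which are not independent replicates, were 0.998 within MDST8 WT, 0.994 to 0.997 within LoVo TWIST1 shRNA, 0.722 to 0.726 between them and 0.864 to 0.870 between the 2 LoVo groups. The share of counts from the mitochondrial genome was 2.4% to 3.05% in MDST8 WT and 10.9%, 6.24% and 5.47% in LoVo TWIST1 shRNA replicates 1, 2 and 3. Values are CPM (read counts scaled to library size, here by TMM), and fold changes are log2 of MDST8 WT over LoVo TWIST1 shRNA, so a negative value is higher in LoVo TWIST1 shRNA. A gene was called at a log2 fold change beyond 0.58 and a Benjamini-Hochberg adjusted p under 0.05 in the quasi-likelihood test of edgeR. Of 14586 genes tested, 4212 (28.9%) were higher in MDST8 WT and 4630 (31.7%) in LoVo TWIST1 shRNA, 60.6% together, and 1374 (9.42%) and 2001 (13.7%) passed 4-fold, 23.1% together. Over all tested genes the median log2 fold change was −0.02, with quartiles of −0.88 and 0.76, and the 2 groups did not overlap for 84.1% of genes. Each count over a gene list is to be read against these shares. A list member that passed the filter on low counts only through the group where it was high had to differ, and bulk RNA cannot separate fewer cells that express a gene from less RNA per cell. Where a group held 0 counts in its 3 libraries the fold is a lower bound, set at a floor of 3 counts per library, and where it summed to under 10 counts the ratio of the higher over the lower group is given with its 95% counting interval, which covers counting error only.

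TWIST1 and the genes that the study placed around it, the secreted matrix proteins SPON2 and SPP1 and the SPP1 receptor CD44, were all higher in MDST8 WT. TWIST1 (ENSG00000122691.13, chr7:19020991-19117636 of hg38, minus strand) had 845, 1034 and 797 counts in MDST8 WT replicates A, B and C, or 45.5 ± 6.08 CPM (SD, n = 3), against 4.75 ± 0.797 CPM in LoVo TWIST1 shRNA. Every MDST8 WT library stood above every LoVo library, with a log2 fold change of 3.26 ± 0.13 (SE) and an edgeR adjusted p of 1.93e-13. SPON2 (ENSG00000159674.12, chr4:1166932-1208962, minus strand), a matricellular spondin, had 117, 173 and 143 counts in MDST8 WT and 39, 22 and 50 in LoVo TWIST1 shRNA. These are 7.34 ± 1.28 and 2.04 ± 0.749 CPM, low levels that did not overlap, with a log2 fold change of 1.84 ± 0.25 (edgeR adjusted p = 1.30e-06). The LoVo shRNA control libraries held 22, 16 and 26 SPON2 counts.

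SPP1 (ENSG00000118785.15, chr4:87975667-87983532, plus strand), or osteopontin, a ligand of CD44 and of αv and α4 integrins, had 875, 889 and 856 counts in MDST8 WT, 18, 22 and 16 in LoVo TWIST1 shRNA and 0, 0 and 1 in LoVo shRNA control. Of these genes it had the largest fold, at 44.6 ± 1.58 against 1.04 ± 0.218 CPM and 42.6-fold (log2 fold change 5.41 ± 0.14, edgeR adjusted p = 2.09e-17). CD44 (ENSG00000026508.21, chr11:35138882-35232402, plus strand) was abundant in both lines, with 24421, 25628 and 25359 counts in MDST8 WT and 15472, 14564 and 15059 in LoVo TWIST1 shRNA. Its level was 1282 ± 9.11 CPM against 837 ± 22.3 CPM, and 234 ± 7.46 CPM in LoVo shRNA control. The groups did not overlap, but the log2 fold change of 0.62 ± 0.05 (edgeR adjusted p = 9.70e-10) lay just past the threshold, and it was 0.51 under upper-quartile normalization and 0.57 without LoVo TWIST1 shRNA replicate 1, neither of which is a call. An exact two-sided permutation test of 3 libraries against 3 cannot go below p = 0.1, the value each of these genes gave.

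**Figure D1:**
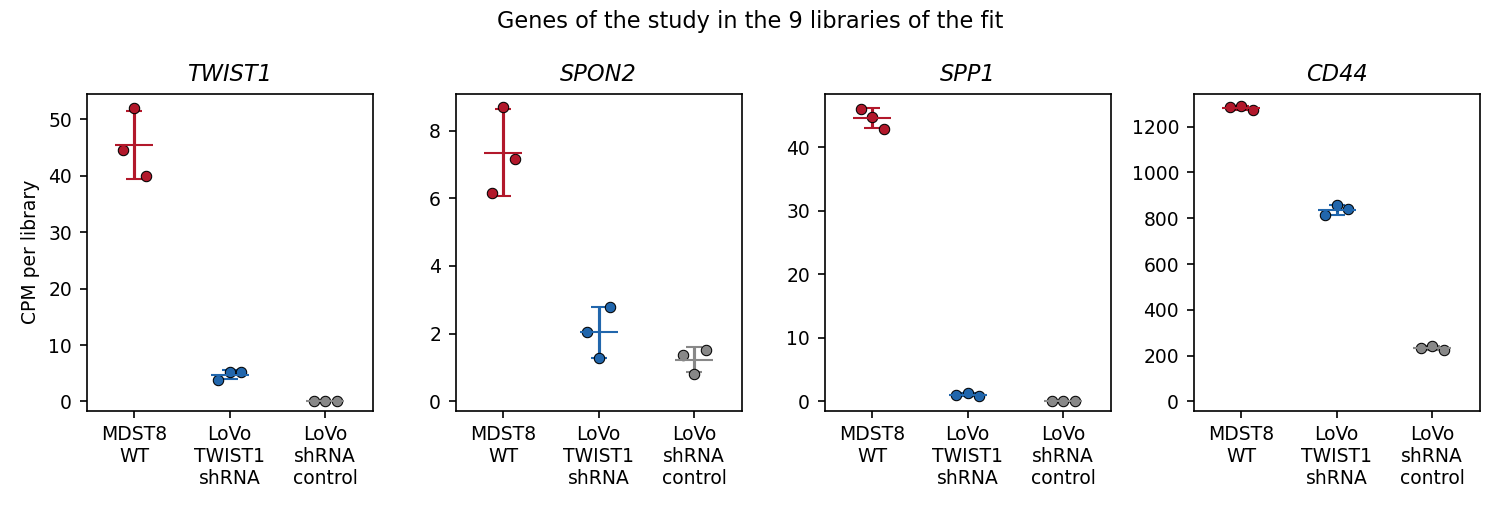
CPM of TWIST1, SPON2, SPP1 and CD44 in each library of the 3 groups (points), with the mean and SD of each group (bars). MDST8 WT was highest for every gene, and TWIST1 stood at 45.5, 4.75 and 0 CPM from left to right.

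The promoter of SPP1 is shown because SPP1 differed most among these genes. It is the 250 bases before the RefSeq start in GRCh38.p14, chr4:87975464-87975713 on the plus strand, written 5′ to 3′ with matches to CATCTG or CAGGTG on either strand in capitals, and it held 1 match to CAGGTG and none to CATCTG.
SPP1: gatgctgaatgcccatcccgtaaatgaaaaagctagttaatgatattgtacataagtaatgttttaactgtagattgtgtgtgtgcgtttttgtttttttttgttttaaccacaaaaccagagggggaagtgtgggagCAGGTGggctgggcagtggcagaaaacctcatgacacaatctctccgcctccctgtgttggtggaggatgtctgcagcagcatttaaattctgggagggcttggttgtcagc

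Among 20 genes of SPP1, CD44 and SPON2 signalling, 19 were tested, 9 were higher in MDST8 WT, 2 in LoVo TWIST1 shRNA and 8 were not called, with a median log2 fold change of 0.30. The SPP1-binding integrin subunit ITGA4 had 668, 751 and 708 counts in MDST8 WT and 0 in each LoVo TWIST1 shRNA library, at least 216.2-fold higher. ITGB3, which pairs with ITGAV in the classic osteopontin receptor, was at 4.17 against 0.415 CPM (log2 fold change 3.33), and the fibronectin receptor subunit ITGA5 was at 388 against 119.7 CPM (1.70). The MDST8 WT and LoVo TWIST1 shRNA levels lay close together for 3 signalling kinases, EGFR (301 and 286 CPM, log2 fold change 0.07), SRC (72.2 and 67.4 CPM, 0.10) and PTK2, the focal adhesion kinase (140 and 157 CPM, −0.16), none of which was called. ITGA9, an integrin subunit that also binds SPP1, went the other way, with 1, 1 and 1 counts in MDST8 WT against 115, 114 and 95, a ratio of 118 (95% counting interval 39.9 to 574).

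Other EMT transcription factors stood higher in MDST8 WT with TWIST1, except in the SNAI family, whose members parted. Of 10 factors, 8 were tested, and 6 were higher in MDST8 WT and 2 in LoVo TWIST1 shRNA (median 4.12). ZEB2 had 1517, 1633 and 1710 counts against 2, 0 and 0, a ratio of 2229 (interval 617 to 18410.2), and ZEB1 had 871, 966 and 935 against 102, 86 and 74 (log2 fold change 3.28 ± 0.10). SNAI2 (Slug) had 2697, 2783 and 2764 counts against 53, 29 and 32 (6.05 ± 0.11). SNAI1 (Snail) was the reverse, with 5, 3 and 4 counts in MDST8 WT against 277, 288 and 294 (−6.24 ± 0.23), and SNAI3 went with it at 0.494 against 4.79 CPM (−3.26). No library of one group overlapped the other for any of these 5 genes. The mesenchymal homeobox gene PRRX1 was at 28.1 against 0.0939 CPM, a ratio of 303 (interval 129.7 to 935), and the forkhead gene FOXC2 at 8.93 against 0.276 CPM (log2 fold change 4.97). TWIST2 was at 0 counts in all 6 libraries and GSC summed to 1 count.

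The E proteins with which TWIST1 pairs, and the ID proteins that sequester E proteins, made a list of 9 genes, of which 6 were tested, 1 was higher in MDST8 WT, 3 in LoVo TWIST1 shRNA and 2 were not called (median −0.80). TCF4 had 1117, 1197 and 1128 counts in MDST8 WT against 0, 1 and 0, a ratio of 3157 (interval 566 to 124738). The other E proteins were near equal: TCF3 was at 243 and 238 CPM (log2 fold change 0.03) and TCF12 at 164 and 178 CPM (−0.11). All tested ID genes were higher in LoVo TWIST1 shRNA, ID1 at 34.1 against 472 CPM (−3.79), ID2 at 15.7 against 44 (−1.49) and ID3 at 28.3 against 118 (−2.06).

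The regulators of epithelial identity were the mirror of the ZEB genes. Of 13 epithelial transcription and splicing factors 11 were tested and all 11 were higher in LoVo TWIST1 shRNA, with a median log2 fold change of −8.59 (−7.38 with genes at 0 counts put at their bound). The splicing factor ESRP1, which sets epithelial exon choice in CD44 and other genes, had 0, 1 and 1 counts in MDST8 WT against 7541, 6464 and 7102, a ratio of 11506 (interval 3185 to 95011). Its paralogue ESRP2 was at 0.307 against 52.2 CPM (log2 fold change −7.38 ± 0.15). The ETS factors EHF and ELF3 were at 281 and 54.6 CPM in LoVo TWIST1 shRNA, with 4 counts of EHF and 1 of ELF3 summed over MDST8 WT. GRHL2, the grainyhead factor that activates E-cadherin, had 542, 441 and 551 counts in LoVo TWIST1 shRNA and 0 in MDST8 WT, at least 185.4-fold higher. OVOL1 and OVOL2, zinc-finger repressors of ZEB1, were at 15.7 and 3.23 CPM against 0.0351 and 0. KLF5 kept some level in both lines, 13.1 against 288 CPM (−4.46 ± 0.07). The pioneer factors FOXA1 (−1.82) and FOXA2 (−4.67) were low in both groups, at most 4.5 CPM, and stood at 56.4 and 56.4 CPM in LoVo shRNA control.

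Most genes of epithelial adhesion were at or near 0 in MDST8 WT and high in LoVo TWIST1 shRNA. Of 33 adhesion and junction genes 32 were tested, 31 were higher in LoVo TWIST1 shRNA and 1 in MDST8 WT, with a median log2 fold change of −8.70 (−8.31 at the bounds). Their summed level was 188 to 199 CPM in MDST8 WT and 3819 to 4305 CPM in LoVo TWIST1 shRNA. CDH1, or E-cadherin, had 3251, 3361 and 3518 counts in LoVo TWIST1 shRNA and 0 in every MDST8 WT library, at least 1229.9-fold higher. EPCAM, the epithelial cell adhesion molecule, had 0, 1 and 1 counts against 5947, 5576 and 5814, a ratio of 9450.5 (interval 2616 to 78042). The tight junction gene CLDN7 had 3007, 3041 and 3417 counts and the desmosomal cadherin gene DSC2 1449, 1308 and 1288 in LoVo TWIST1 shRNA, with 0 in MDST8 WT, so they were at least 1148.7-fold and 489.8-fold higher. SPINT2, an inhibitor of membrane serine proteases, was likewise at 0 in MDST8 WT and at 207 CPM in LoVo TWIST1 shRNA, at least 1354.8-fold higher, and MAL2, a protein of apical transport, was at 0.0343 against 355 CPM. CLDN12 was the exception, at 79.1 ± 1.93 CPM in MDST8 WT and 42.5 ± 2.51 CPM in LoVo TWIST1 shRNA (log2 fold change 0.90 ± 0.06). In LoVo shRNA control the list summed to 6177 to 6250.5 CPM, and CDH1 was at 277 and EPCAM at 596 CPM there.

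The promoters of these genes were searched for the 2 E-box forms. The CAGGTG match was found in 46.2% of the 26 promoters that RefSeq gave for 17 of the 32 tested junction genes, against 17.5% of all 34961 promoters and 16.1% of the promoters of tested protein-coding genes. Promoters of genes over 4-fold higher in LoVo TWIST1 shRNA held it in 25.5% and those of genes over 4-fold higher in MDST8 WT in 13.6%. At the extremes the shares were 29.8% for tested genes at 0 counts in MDST8 WT and 14.2% for those at 0 in LoVo TWIST1 shRNA. The CATCTG match was found in 3.85% of junction promoters, 8.31% and 12.6% of those over 4-fold higher in LoVo TWIST1 shRNA and in MDST8 WT, against 8.52% of the promoters of tested protein-coding genes and 12.1% of all promoters. The AP-1 motif TGANTCA was about as frequent in both 4-fold sets, at 6.60% and 6.51%. It was found in 6.54% of all promoters and in 4.49% of the promoters of tested protein-coding genes. Each window was the 250 bases before a start, both strands were searched, and such matches describe letters, not binding. Promoters of CLDN7 (chr17:7262479-7262728, minus strand, the second of 2 RefSeq starts), DSC2 (chr18:31102422-31102671, minus strand, the first of 2 starts) and ELF3 (chr1:202010337-202010586, plus strand) are shown as genes with no or 1 count in MDST8 WT, each with CAGGTG or CATCTG in capitals on either strand, and that of the polarity gene CRB3 (chr19:6464021-6464270, plus strand), chosen after the matches were seen, holds the most.
CLDN7: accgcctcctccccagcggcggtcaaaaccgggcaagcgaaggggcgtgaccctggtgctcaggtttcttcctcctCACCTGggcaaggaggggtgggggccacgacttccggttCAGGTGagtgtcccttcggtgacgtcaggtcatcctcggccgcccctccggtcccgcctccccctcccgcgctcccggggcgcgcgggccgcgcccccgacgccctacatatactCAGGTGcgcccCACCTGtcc
DSC2: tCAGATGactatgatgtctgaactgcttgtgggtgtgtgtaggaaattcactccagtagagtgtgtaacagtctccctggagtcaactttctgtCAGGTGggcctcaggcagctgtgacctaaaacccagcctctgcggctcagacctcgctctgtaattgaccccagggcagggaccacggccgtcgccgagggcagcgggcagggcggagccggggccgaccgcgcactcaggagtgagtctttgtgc
ELF3: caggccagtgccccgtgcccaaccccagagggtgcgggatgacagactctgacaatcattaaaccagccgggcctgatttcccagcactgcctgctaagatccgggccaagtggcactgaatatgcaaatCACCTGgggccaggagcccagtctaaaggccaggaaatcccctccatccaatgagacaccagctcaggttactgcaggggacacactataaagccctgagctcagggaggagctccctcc
CRB3: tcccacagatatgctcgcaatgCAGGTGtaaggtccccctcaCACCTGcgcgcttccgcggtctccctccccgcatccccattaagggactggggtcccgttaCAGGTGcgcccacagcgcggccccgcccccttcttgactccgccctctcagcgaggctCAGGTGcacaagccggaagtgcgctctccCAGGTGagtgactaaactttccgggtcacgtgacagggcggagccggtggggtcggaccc

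CLDN7 held 4 matches to CAGGTG, CRB3 held 5 and ELF3 held 1, while DSC2 held 1 match to each E-box form. Every promoter printed in this report holds a match to CAGGTG, which most junction and intestinal promoters lacked. The printed promoters are therefore examples and not a sample of their sets, and the other start of CLDN7 and of DSC2 is not shown. CRB3 had 2, 0 and 1 counts in MDST8 WT against 470, 375 and 457 in LoVo TWIST1 shRNA, a ratio of 473 (interval 162 to 2297).

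The intermediate filaments switched with the junctions. Of 22 keratins and vimentin-type filament genes, 13 were tested, 12 were higher in LoVo TWIST1 shRNA and 1 in MDST8 WT (median −4.19). The 1 was VIM, the mesenchymal filament vimentin, with 66828, 66447 and 69548 counts in MDST8 WT against 175, 216 and 239, or 3449.5 ± 94.7 against 11.7 ± 2.24 CPM (log2 fold change 8.20 ± 0.10, edgeR adjusted p = 7.56e-22). KRT8, the keratin of simple epithelia, was the reverse, with 231, 224 and 196 counts against 45831, 45661 and 48114 (−7.87 ± 0.09). KRT19, another keratin of simple epithelia, had 4, 13 and 2 counts in MDST8 WT against 14299, 15569 and 17093 (−11.37), and KRT7 stood at 1.09 against 435 CPM (−8.63). No MDST8 WT library reached a LoVo level for any of these 3 keratins. KRT7, a keratin that normal colon largely lacks, was at only 11.3 CPM in LoVo shRNA control, and KRT23 was at 0.0341 CPM there against 15.7 in LoVo TWIST1 shRNA. DES, the muscle filament desmin, was low, at 0, 0 and 1 counts against 48, 52 and 62. Keratin genes share sequence with pseudogenes, so the split of reads among them is uncertain.

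**Figure D2:**
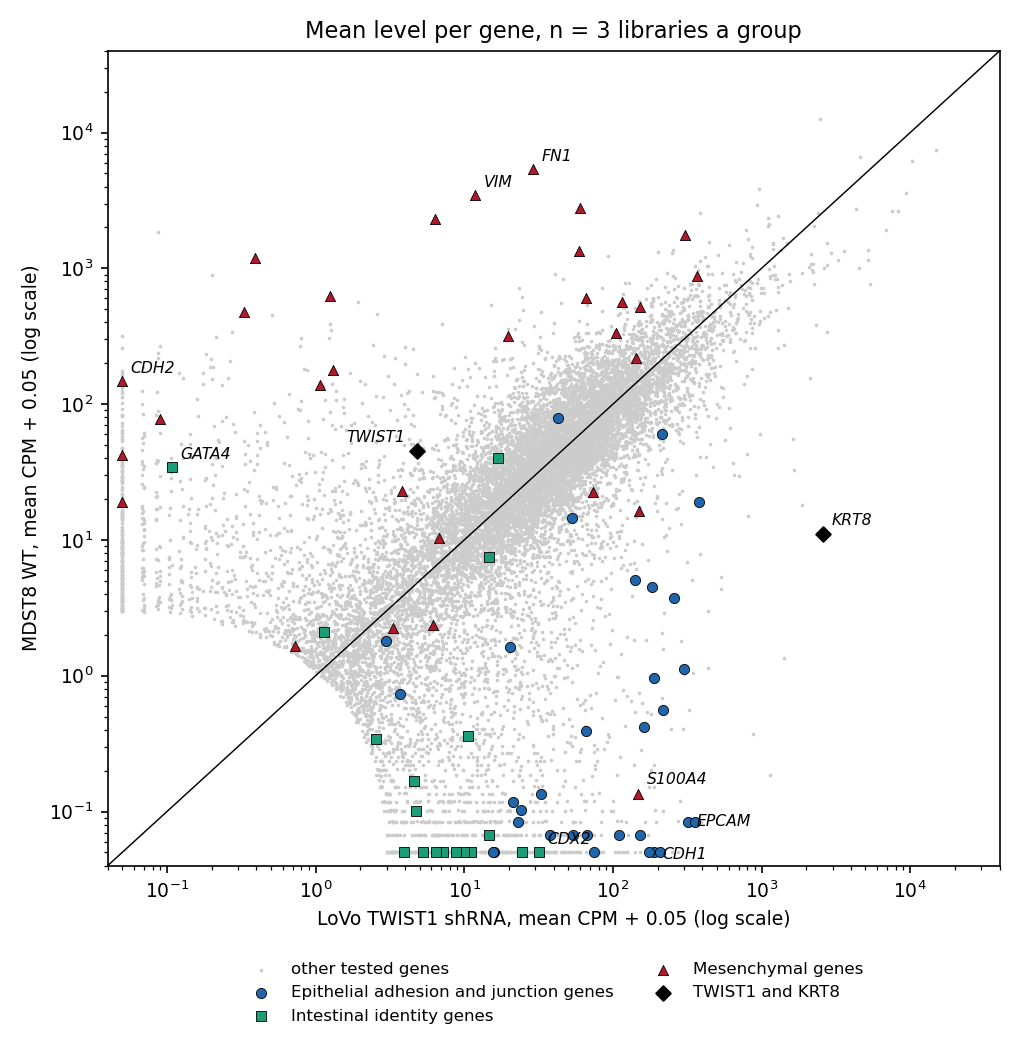
Mean CPM of every tested gene in MDST8 WT (vertical) and LoVo TWIST1 shRNA (horizontal), n = 3 libraries each, with 0.05 added on log axes, junction, intestinal and mesenchymal list members coloured, TWIST1 and KRT8 as black diamonds and the line of equal level in black. Junction and intestinal genes gather along the bottom edge, where MDST8 WT held no or few counts, CDH2 sits on the left edge, and S100A4 is the mesenchymal gene far below the line.

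Markers of colon epithelium were present in LoVo TWIST1 shRNA and largely missing from MDST8 WT, although both lines were labelled colon. Of 10 markers 8 were tested and all 8 were higher in LoVo TWIST1 shRNA, with a median of −10.94 (−7.78 at the bounds), and their summed level was 69.7 to 75.7 CPM against 4612 to 5206 CPM. CDX2, the homeobox factor that specifies hindgut epithelium, had 562, 516 and 626 counts in LoVo TWIST1 shRNA and 0 in MDST8 WT, at least 206.5-fold higher, and stood at 266 CPM in LoVo shRNA control against 31.6 in LoVo TWIST1 shRNA. CDX2, CEACAM5 and CDH1 were at 0 in every MDST8 WT library, and KRT18 made up most of what remained (60.5 CPM).

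The wider list of 34 intestinal identity genes had 18 tested members, of which 15 were higher in LoVo TWIST1 shRNA and 3 in MDST8 WT (median −9.20, or −5.28 at the bounds). HNF4A, the nuclear receptor of the enterocyte programme, had 192, 199 and 199 counts in LoVo TWIST1 shRNA and 0 in MDST8 WT, at least 71.6-fold higher. The goblet cell mucin MUC2 was at 7.14 CPM, the tetraspanin TSPAN8 at 24.3 and PHGR1 at 8.73, each with 0 counts in MDST8 WT. These LoVo levels were low beside LoVo shRNA control, where HNF4A was at 176, MUC2 at 53.2 and TSPAN8 at 708 CPM, and the whole list summed to 182 to 198 CPM in LoVo TWIST1 shRNA and 3014 to 3077 CPM in LoVo shRNA control. In MDST8 WT the list summed to 83.5 to 87.8 CPM, of which GATA4 gave 34.3 CPM. GATA4, an endoderm factor of the proximal gut, had 605, 741 and 672 counts in MDST8 WT against 0, 3 and 0, a ratio of 617 (interval 211 to 2994). CEACAM5, the carcinoembryonic antigen, had 184, 186 and 160 counts in LoVo TWIST1 shRNA and 0 in MDST8 WT, and its promoter (chr19:41708376-41708625, plus strand, E-box matches in capitals) is shown as an intestinal gene with a CAGGTG match on the minus strand.
CEACAM5: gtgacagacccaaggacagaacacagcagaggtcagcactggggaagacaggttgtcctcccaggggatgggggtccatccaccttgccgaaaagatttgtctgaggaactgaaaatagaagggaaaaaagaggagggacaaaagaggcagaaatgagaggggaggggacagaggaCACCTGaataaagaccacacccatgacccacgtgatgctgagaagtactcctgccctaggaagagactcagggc

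Intestinal and junction promoters differed in CpG content. The median observed over expected CpG was 0.241 over 16 intestinal promoters, 0.712 over the 26 junction promoters and 0.793 over promoters of tested protein-coding genes. The intestinal promoters held the CAGGTG match in 25% and the AP-1 motif in 18.8%. The shares were 17.5% and 6.54% of all promoters, and 16.1% and 4.49% of those of tested protein-coding genes. These 16 promoters came from 12 of the 18 tested intestinal genes, too few for a precise share.

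Genes of mesenchymal cells were higher in MDST8 WT, often by more than 4-fold. Of 37 such genes 30 were tested, 25 were higher in MDST8 WT, 4 in LoVo TWIST1 shRNA and 1 was not called (median 3.61), and their summed level was 23372 to 23675 CPM against 1752 to 1927 CPM. CDH2, or N-cadherin, had 2771, 2959 and 2914 counts in MDST8 WT and 0 in LoVo TWIST1 shRNA, at least 879.0-fold higher. FN1, the matrix protein fibronectin, had 95047, 108235 and 113396 counts against 533, 518 and 513, or 5378 ± 346 against 29.0 ± 1.29 CPM (log2 fold change 7.53 ± 0.09, edgeR adjusted p = 3.25e-22). The fibroblast protease gene FAP had 786, 789 and 888 counts against 0, at least 250.4-fold higher, and the small proteoglycan gene LUM 357, 363 and 391 against 0, at least 113.0-fold. The fibrillar collagen chain COL5A1 was at 479.8 against 0.279 CPM (10.72), and the TGF-beta-induced matrix gene TGFBI at 2307 against 6.34 CPM (8.51).

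A few mesenchymal genes did not follow. S100A4, the calcium-binding protein once named fibroblast-specific protein, had 1, 3 and 1 counts in MDST8 WT against 2725, 2597 and 2635, a ratio of 1735 (interval 743 to 5345). The contractile genes TPM2 (16.2 against 149.7 CPM, log2 fold change −3.21) and MYL9 (22.7 against 73.6 CPM, −1.70) and the collagen chain COL5A2 (−1.39) were also higher in LoVo TWIST1 shRNA, where all 4 stood above LoVo shRNA control (32.0, 7.37, 7.11 and 0.795 CPM). COL6A3 was at 2.21 and 3.26 CPM (−0.56) and was not called, although it was −0.60 to −0.62 and called without MDST8 WT replicate A or LoVo TWIST1 shRNA replicate 2 or 3. Another chain, COL6A2, was at 1773 in MDST8 WT, 304 in LoVo TWIST1 shRNA and 0 CPM in LoVo shRNA control (log2 fold change 2.54 against LoVo TWIST1 shRNA).

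Markers of fibroblasts and mesothelial cells were present in both lines, but not the same ones. Of 13 markers 8 were tested, 6 were higher in MDST8 WT and 2 in LoVo TWIST1 shRNA (median 3.43), and the sums were 705 to 722 CPM in MDST8 WT, 240 to 268 CPM in LoVo TWIST1 shRNA and 19.2 to 25.4 CPM in LoVo shRNA control. COL1A1 made most of the MDST8 WT sum (602 against 65.4 CPM), and the surface marker THY1 had 1519, 1519 and 1534 counts there against 0, 2 and 0. The fibroblast genes COL1A2, COL3A1, DCN and PDGFRA were all under the filter on low counts. Among mesothelial markers, WT1 had 62, 57 and 55 counts in MDST8 WT against 0, 3 and 3, whereas MSLN (mesothelin) had 13, 15 and 13 against 2639, 2518 and 2888 (log2 fold change −7.73 ± 0.13) and CALB2 (calretinin) 58, 78 and 75 against 774, 608 and 745 (−3.45 ± 0.12). The part of other cell types in these values was not tested, and none of 15 blood and endothelial markers passed the filter, their sum being at most 3.24 CPM in any of these libraries. Of 21 markers of other lineages 4 were tested, and DES, PMEL and SYP were higher in LoVo TWIST1 shRNA (PMEL −3.34 and SYP −1.07 on the log2 scale) while PAX8 was at 9.98 and 9.38 CPM.

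Matrix-degrading enzymes were mostly higher in MDST8 WT. Of 21 matrix metalloproteinase (MMP) genes and inhibitors 14 were tested, 9 were higher in MDST8 WT, 3 in LoVo TWIST1 shRNA and 2 were not called (median 1.25). The gelatinase gene MMP2 had 23072, 24006 and 23138 counts in MDST8 WT against 14, 3 and 2 (log2 fold change 11.70), and MMP14, the membrane enzyme that activates pro-MMP2, had 26311, 27125 and 25405 against 1045, 1025 and 1127 (4.5 ± 0.07). The groups did not overlap for either gene, nor for the collagenase gene MMP1, at 108 against 1.51 CPM (6.18). MMP16 and MMP3 were nearly private to MDST8 WT, with 0, 2 and 0 and 0, 0 and 0 counts in LoVo TWIST1 shRNA against means of 80.7 and 3.21 CPM. The inhibitor gene TIMP3 was at 0.767 against 31.4 CPM (−5.35), higher in LoVo TWIST1 shRNA, and TIMP1 was at 147 against 109.8 CPM, not called. MMP11 was called at −0.63, and it was −0.55 and not called without MDST8 WT replicate C or without LoVo TWIST1 shRNA replicate 3.

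Cell-matrix receptors and laminins were called in both directions. Of 31 genes 28 were tested, 10 were higher in MDST8 WT, 11 in LoVo TWIST1 shRNA and 7 were not called (median 0.08). The hemidesmosome subunit ITGB4 was higher in LoVo TWIST1 shRNA, with 34, 14 and 28 counts in MDST8 WT against 23875, 23594 and 28641 (log2 fold change −10.09 ± 0.15). LAMA5, the alpha chain of epithelial basement membranes, was at 5.24 against 533 CPM (−6.66), and LAMC3 had 0, 5 and 2 counts against 791, 806 and 952, with 0.182 CPM in LoVo shRNA control. In MDST8 WT the laminin chains LAMA1 (44.7 against 0.199 CPM, 7.73) and LAMB1 (294 against 70.7 CPM, 2.06) and the integrin subunits ITGB8 (4.09) and ITGA11 (2.91) were higher. The widely expressed subunits ITGA3 (1353 and 1344 CPM), ITGA6 (409.6 and 371 CPM) and ITGB1 (784 and 925 CPM) were not called, although ITGA3 was at 55.9 CPM in LoVo shRNA control.

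Target genes of WNT signalling, which is active in most colorectal cancers, split by gene. Of 25 WNT target and feedback genes 21 were tested, 7 were higher in MDST8 WT, 11 in LoVo TWIST1 shRNA and 3 were not called (median −0.75). The stem cell receptor LGR5 had 430, 395 and 399 counts in LoVo TWIST1 shRNA and 0 in MDST8 WT, at least 148.3-fold higher, and its level in LoVo shRNA control was 397 CPM against 22.7. The feedback inhibitors RNF43 and NOTUM had 178, 139 and 145 and 783, 737 and 883 counts in LoVo TWIST1 shRNA, with 0 and 2 counts summed over MDST8 WT. Other feedback genes were the reverse, AXIN2 at 47.4 against 15.4 CPM (log2 fold change 1.62) and NKD1 at 102 against 16 CPM (2.68). LEF1, a transcription factor of the pathway, had 1332, 1506 and 1457 counts in MDST8 WT against 22, 34 and 38 (5.38 ± 0.12). SOX9 (299 and 313 CPM), ZNRF3 (38.4 and 46.9 CPM) and CCND1 (1549 and 1193 CPM) were not called.

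TGF-beta and BMP genes gave no common direction, with 9 of 27 tested genes (28 in the list) higher in MDST8 WT, 10 in LoVo TWIST1 shRNA and 8 not called (median −0.23). The ligand gene INHBA, which encodes an activin subunit, was the largest on the MDST8 WT side, at 8588, 9036 and 9364 counts against 53, 36 and 48 (log2 fold change 7.49 ± 0.10), and BMP2 was at 68.9 against 1.43 CPM (5.59). The receptor genes TGFBR2 (1.48) and BMPR2 (2.09) and the latent-complex gene LTBP1 (2.41) were also higher in MDST8 WT. BMP7, which opposes TGF-beta in epithelia, was at 0.253 against 21.1 CPM (−6.33), and GDF15, a stress-induced member of the superfamily, at 55.0 against 1624 CPM (−4.88). SMAD3 (−0.95) and SMAD6 (−1.46) were higher in LoVo TWIST1 shRNA, and SMAD7 (20.8 and 19 CPM) was not called.

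Several ligands of the EGF receptor family differed far more than EGFR, and so did the co-receptor ERBB3. Of 14 genes 11 were tested, 2 were higher in MDST8 WT, 6 in LoVo TWIST1 shRNA and 3 were not called (median −0.78). EGFR itself had 5517, 6084 and 6124 counts in MDST8 WT and 5387, 4759 and 5288 in LoVo TWIST1 shRNA. TGFA had 2, 1 and 0 counts against 3568, 3288 and 3458, a ratio of 3748 (interval 1282 to 18178), and AREG, or amphiregulin, 25, 20 and 12 against 5562, 5292 and 5362 (log2 fold change −8.27 ± 0.12). EREG was at 40.6 against 387 CPM (−3.25) and the co-receptor ERBB3 at 1.63 against 71.4 CPM (−5.44). NRG1, the ligand of ERBB3, was the reverse, with 5298, 5227 and 5385 counts in MDST8 WT against 55, 35 and 40 (6.81 ± 0.09), so ligand and receptor were high in different groups. EGF followed NRG1 at 5.69 against 1.11 CPM (2.35).

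Immediate-early and feedback genes of the MAPK pathway were mostly higher in LoVo TWIST1 shRNA. All 19 were tested, 12 were higher in LoVo TWIST1 shRNA, 3 in MDST8 WT and 4 were not called (median −1.94). Their sums were 3713 to 3802 CPM in MDST8 WT, 6960 to 7757 in LoVo TWIST1 shRNA and 3121 to 3234 in LoVo shRNA control. A link between these genes and the EGF family ligands was not tested. FOS had 29, 34 and 40 counts in MDST8 WT against 5153, 5315 and 4881 (log2 fold change −7.34 ± 0.12) and EGR1 321, 346 and 205 against 14445, 14302 and 14678 (−5.76 ± 0.13). Both were far lower in LoVo shRNA control, at 21.7 and 37.4 CPM against 285 and 807 in LoVo TWIST1 shRNA. The ERK phosphatase gene DUSP6 was at 30.0 in MDST8 WT, 363 in LoVo TWIST1 shRNA and 38.5 CPM in LoVo shRNA control (−3.60 for MDST8 WT over LoVo TWIST1 shRNA). SPRY2, a feedback inhibitor, went the other way at 133 against 14.6 CPM (3.18 ± 0.07), while SPRY1 was at 0.289 against 5.10 CPM (−4.11). The AP-1 gene FOSL1 (469.9 and 386 CPM) and PHLDA1 (811 and 837 CPM) were not called.

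**Figure D3:**
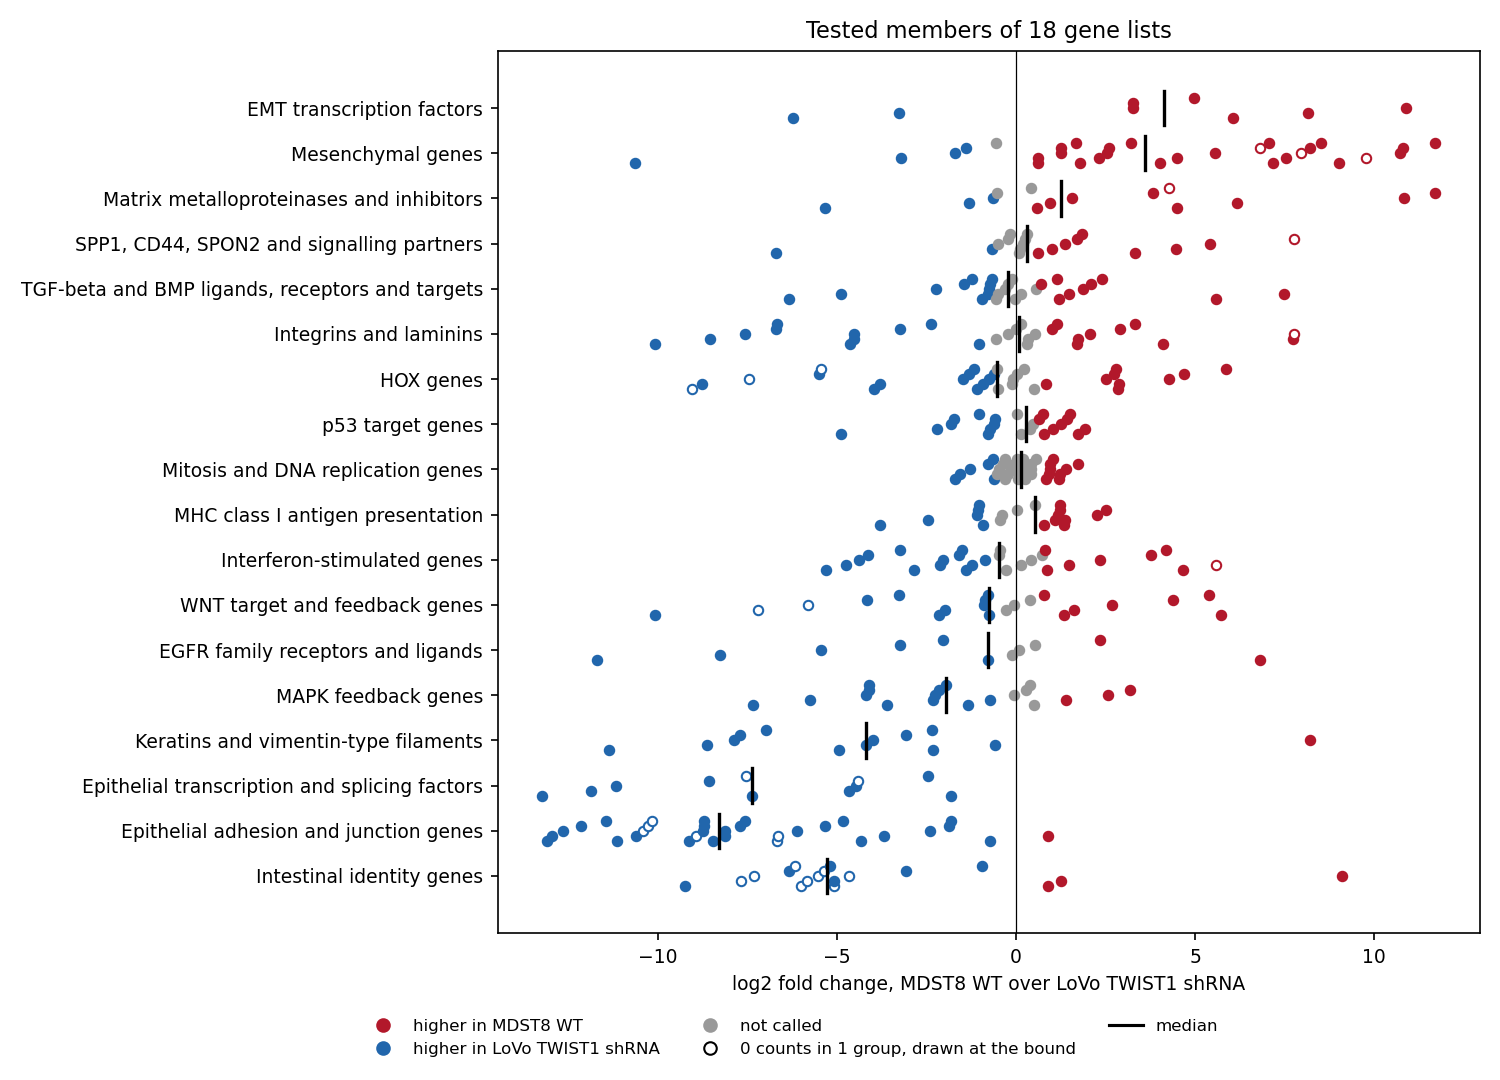
Log2 fold change of MDST8 WT over LoVo TWIST1 shRNA for each tested member of 18 gene lists (points), coloured by call, with open points for genes at 0 counts in 1 group, drawn at their bound, and black bars for list medians. Medians run from 4.12 for EMT transcription factors to −8.31 for junction genes, and most lists in between have members called in both directions.

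Genes of MHC class I antigen presentation were called in both directions, with the heavy chains together. Of 19 genes, all tested, 9 were higher in MDST8 WT, 6 in LoVo TWIST1 shRNA and 4 were not called (median 0.54). The balance depended on the LoVo group used. Over LoVo shRNA control, 1 of the 19 was called higher in MDST8 WT and 13 were called lower. The heavy chains named here were higher in LoVo TWIST1 shRNA, HLA-B at 124 against 254 CPM (log2 fold change −1.03) and HLA-C at 278 against 529 (−0.93), with HLA-E (−1.10) and HLA-F (−3.79). Reads of these polymorphic paralogues can be split among them, so their separate levels are uncertain. The immunoproteasome genes PSMB8 (28.0 against 4.94 CPM, 2.51) and PSMB9 (16.4 against 6.29 CPM, 1.38), the trimming peptidases ERAP1 (1.33) and ERAP2 (2.25) and the class I regulator NLRC5 (1.22) were higher in MDST8 WT. The 2 subunits of the peptide transporter parted, TAP1 at 56.6 and 55.9 CPM, not called, and TAP2 at 7.99 against 43.7 CPM (−2.45).

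Interferon-stimulated genes were mixed. Of 31 genes 27 were tested, 8 were higher in MDST8 WT, 13 in LoVo TWIST1 shRNA and 6 were not called (median −0.48). MX2 had 143, 173 and 154 counts in MDST8 WT and 0 in LoVo TWIST1 shRNA, at least 47.8-fold higher, and IFI44, OAS2 and IFIT3 were at 25.7, 11.7 and 25.8 CPM against 1.01, 0.630 and 1.88. The antiviral membrane genes IFITM1 (−3.25) and IFITM2 (1.09 against 43.4 CPM, −5.31) and the tetherin gene BST2 (−2.86) were higher in LoVo TWIST1 shRNA. As a sum, the list stood at 514 to 532 CPM in MDST8 WT, 650 to 699.6 CPM in LoVo TWIST1 shRNA and 1676 to 1698 CPM in LoVo shRNA control.

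Secreted signals also divided, with 20 of 35 chemokine, cytokine and growth factor genes tested, 7 higher in MDST8 WT, 9 in LoVo TWIST1 shRNA and 4 not called (median −0.10). CCL2, which draws monocytes, had 2054, 1947 and 1854 counts in MDST8 WT against 1, 0 and 0, a ratio of 5371 (interval 964 to 212161), and the lymphangiogenic factor VEGFC 635, 659 and 582 against 0, at least 190.9-fold higher. VEGFA, the angiogenic factor of the same family, was the reverse, with 172, 243 and 198 counts against 4361, 3600 and 3930 (log2 fold change −4.40 ± 0.08). IL11 (45.9 against 6.59 CPM, 2.79) and IL1B (19.7 against 0.834 CPM, 4.55) were higher in MDST8 WT. The epithelial cytokine IL18 and the neutrophil chemokine CXCL2 had 0 counts in MDST8 WT and were at 38.8 and 20.5 CPM in LoVo TWIST1 shRNA, and PDGFB was at 0.0511 against 97.6 CPM, with 11.8 in LoVo shRNA control.

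Most proliferation genes were not called. Of 34 mitosis and replication genes, all tested, 19 were not called, 9 were higher in MDST8 WT and 6 in LoVo TWIST1 shRNA (median 0.13), and none passed 4-fold. With LoVo shRNA control in place of LoVo TWIST1 shRNA, 20 of the 34 were called higher in MDST8 WT and 3 lower. The spindle motor KIF11 was at 277 against 83.8 CPM (log2 fold change 1.73 ± 0.05) and the kinase AURKA at 186 against 70.2 CPM (1.41). Subunits of the MCM helicase did not move together, MCM4 (1.18) and MCM7 (0.96) being higher in MDST8 WT and MCM2 (44.7 against 146 CPM, −1.70) in LoVo TWIST1 shRNA. The cyclin CCNB1 (0.06), the checkpoint kinase BUB1B (0.03) and the motor KIF23 (−0.06) were not called.

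p53 target genes divided evenly, with 9 of 22 higher on each side and 4 not called (median 0.27). BAX (209 against 77.7 CPM, 1.43), FAS (58.1 against 20.5 CPM, 1.5) and ZMAT3 (1.91) were higher in MDST8 WT. GDF15 (−4.88), BTG2 (−2.21), SESN2 (−1.82) and BBC3, or PUMA (−1.73), were higher in LoVo TWIST1 shRNA, and MDM2 was at 154 and 153 CPM. Of 28 hypoxia and glycolysis genes 27 were tested, 14 were not called, 10 were higher in LoVo TWIST1 shRNA and 3 in MDST8 WT (median −0.21). The glycolytic enzyme genes GAPDH (−0.13), PKM (0.11) and TPI1 (0.06) were not called, whereas the HIF hydroxylase gene EGLN3 (−5.68), the lactate exporter SLC16A3 (21.6 against 279.9 CPM, −3.70) and the glucose transporter SLC2A1 (99.2 against 408 CPM, −2.04) were higher in LoVo TWIST1 shRNA. HK1 was higher in MDST8 WT (1.97).

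DNA repair genes were higher in MDST8 WT where they were called, with 1 exception. Of 10 mismatch repair genes and MGMT, 4 were higher in MDST8 WT, 1 in LoVo TWIST1 shRNA and 5 were not called (median 0.05). The mismatch recognition genes MSH6 and MSH3 were among them, MSH6 at 115 against 46.9 CPM (log2 fold change 1.29) and MSH3 at 18.2 against 6.67 (1.45). The exception was MGMT, the alkyltransferase that removes O-6-methylguanine, at 3.88 against 12.5 CPM (−1.69).

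All 15 mitochondrially encoded genes of the list were higher in LoVo TWIST1 shRNA (median −1.67), and replicate 1 of that group held the most of each named here. Against LoVo shRNA control, only 3 of the 15 were called lower in MDST8 WT and 3 were called higher. The list summed to 23299 to 29472 CPM in MDST8 WT, 53465 to 107507 in LoVo TWIST1 shRNA and 37158 to 41805 in LoVo shRNA control. MT-CO1, a subunit of cytochrome oxidase, had 133302, 136896 and 170837 counts in MDST8 WT and 409934, 213493 and 194339 in LoVo TWIST1 shRNA (log2 fold change −1.0 ± 0.17). MT-ND6 was at −2.39 and MT-ATP8 at −3.05. Without LoVo TWIST1 shRNA replicate 1 all 15 were still called, at −0.67, −2.04 and −2.72 for the same 3 genes.

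HOX genes, which keep a record of position along the body axis, differed by cluster. Of 39 genes 30 were tested, 9 were higher in MDST8 WT, 14 in LoVo TWIST1 shRNA and 7 were not called (median −0.53). The 5 tested genes at the distal end of the HOXA cluster were at or near 0 in MDST8 WT, HOXA9 with 0 counts against 1567, 1387 and 1449 in LoVo TWIST1 shRNA, at least 533.0-fold higher, HOXA10 with 0 against 478, 426 and 554, at least 176.6-fold, and HOXA7 with 0 against 147, 105 and 113. HOXA13 was at 0.325 against 15 CPM (log2 fold change −5.50), and at 179 CPM in LoVo shRNA control. In the HOXB cluster HOXB2 was higher in MDST8 WT, 2080, 1874 and 1950 counts against 79, 58 and 73 (4.69 ± 0.10), its neighbour HOXB3 was at 27.4 and 29.1 CPM and not called, and HOXB4 was higher in LoVo TWIST1 shRNA (2.59 against 41.0 CPM, −3.97). Members of the HOXC and HOXD clusters were called mostly toward MDST8 WT (8 of 11 tested), among them HOXC4 (11.5 against 0.594 CPM, 4.27), HOXD4 (2.87) and HOXD9 (71, 82 and 61 counts against 3, 0 and 0), with HOXC9 and HOXD8 not called. The counts were made without a strand option, so reads of antisense transcripts in these clusters cannot be told apart from the HOX genes.

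**Figure D4:**
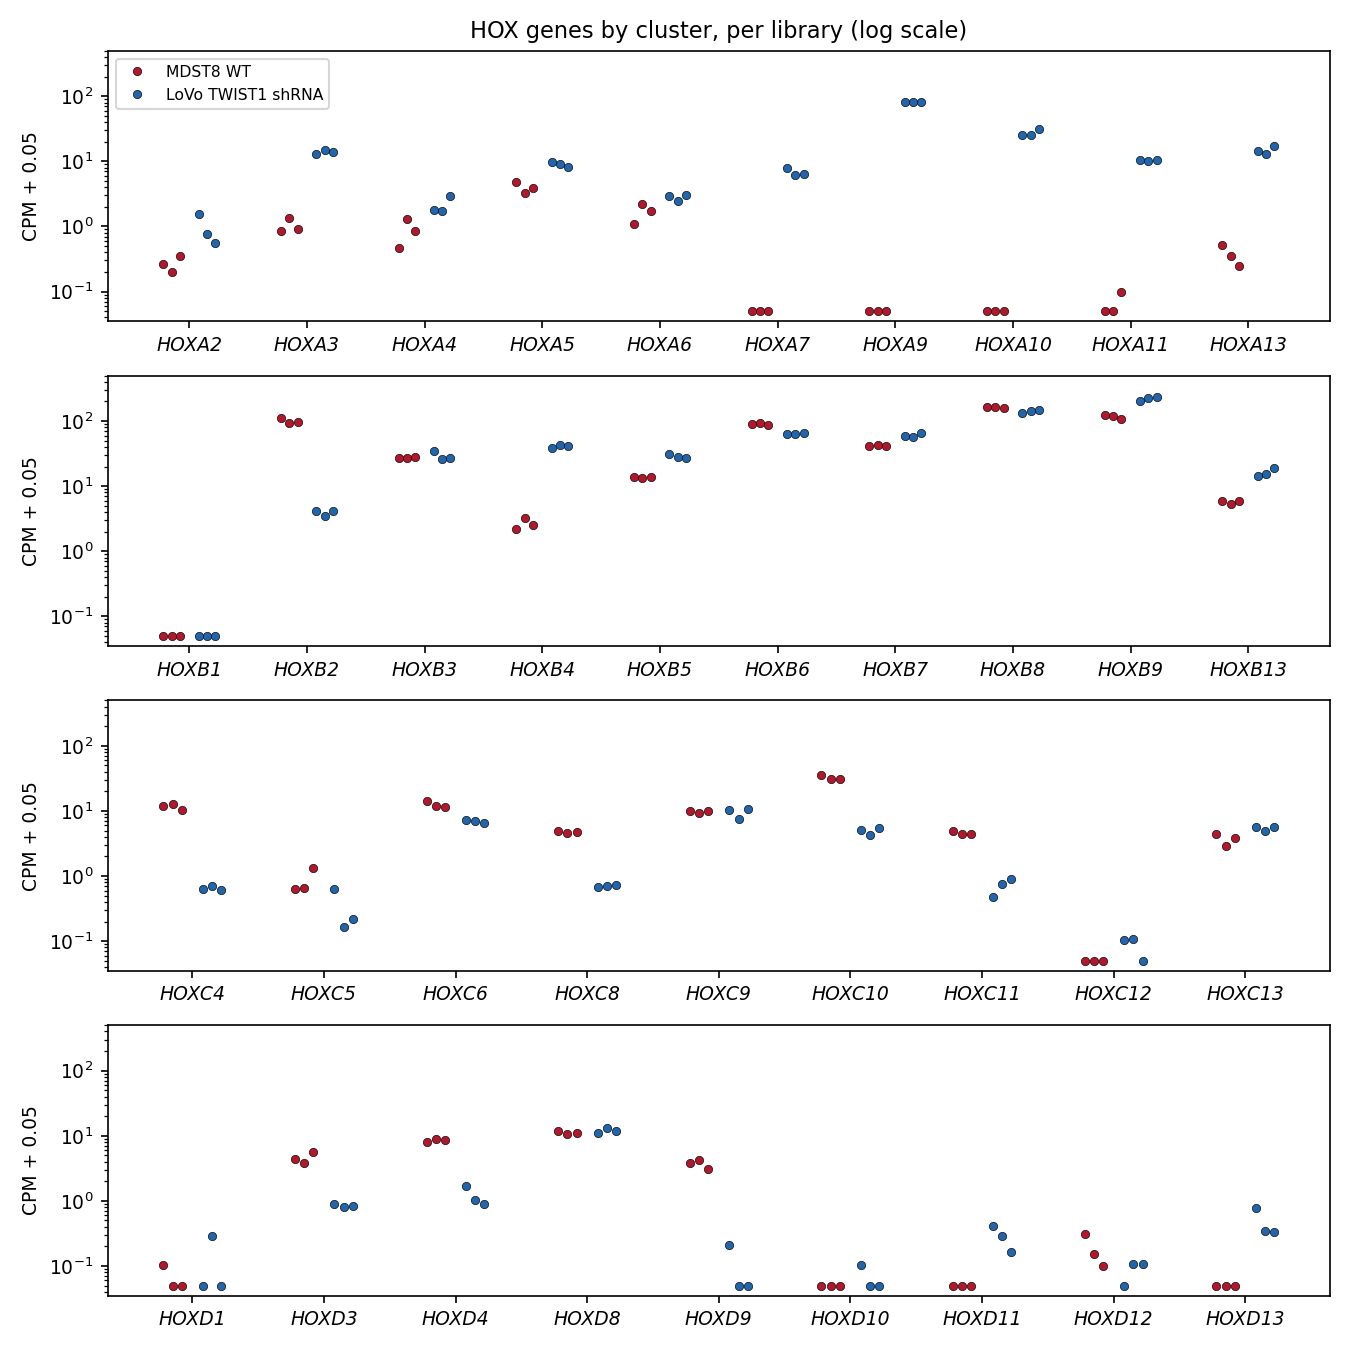
CPM plus 0.05 of HOX genes in each library of MDST8 WT and LoVo TWIST1 shRNA, on a log scale, 1 panel a cluster in numerical order. HOXA7 to HOXA11 lie at the floor in MDST8 WT, while HOXA9 averages 81.6 CPM in LoVo TWIST1 shRNA, and HOXB2 shows the opposite order.

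The balance of higher and lower genes differed by chromosome. Over all 12754 tested protein-coding genes, 29.1% were higher in MDST8 WT and 30.6% in LoVo TWIST1 shRNA. On chromosome 20 the median log2 fold change was 0.63 and 51.9% of genes were higher in MDST8 WT, and on chromosome 7 the median was 0.60 with 51.1%. Chromosomes 21 (0.54), 11 (0.43) and 13 (0.38) followed. Chromosome 6 had the lowest median, −0.41, with 42.1% of its genes higher in LoVo TWIST1 shRNA, and chromosomes 3 and 16 were at −0.31 each. The median of chromosome 7 was 0.11 for MDST8 WT over LoVo shRNA control, beside 0.81 for chromosome 20. Other chromosomes also changed with the LoVo group used. Chromosome 12 was at −0.13 over LoVo TWIST1 shRNA and −0.58 over LoVo shRNA control, and chromosome 8 at −0.13 and 0.33. Chromosomes 5 (−0.17 and −0.45) and 15 (−0.07 and −0.36) moved as well, while chromosome 2 stayed at 0.24 in both. TWIST1 lies on chromosome 7, where its own log2 fold change of 3.26 stood well above the chromosome median.

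**Figure D5:**
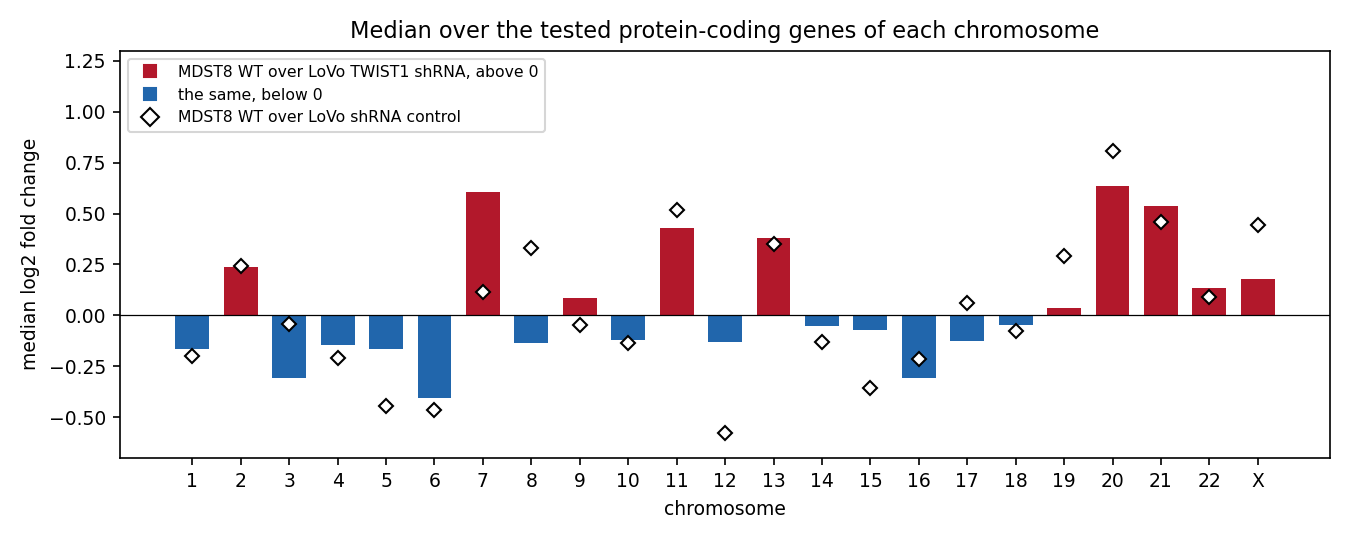
Median log2 fold change over the tested protein-coding genes of each chromosome, for MDST8 WT over LoVo TWIST1 shRNA (bars) and over LoVo shRNA control (diamonds). Chromosomes 20 and 7 have the tallest bars, 0.63 and 0.60, and chromosome 6 the lowest, −0.41. The diamond of chromosome 7 is at 0.11, and those of chromosomes 12 and 8, also apart from their bars, are at −0.58 and 0.33.

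Some genes were measured in one group and had no counts in the other, which does not make them silent in the line. Among protein-coding genes, 276 with a mean of at least 1 CPM in MDST8 WT had 0 counts in every LoVo TWIST1 shRNA library, and 97 of them reached 10 CPM and 11 reached 100 CPM. In the other direction there were 337, 127 and 15. Among genes with 0 counts on one side and at least 10 CPM on the other, the highest bound in MDST8 WT belonged to VAT1L (6375, 6287 and 5828 counts against 0, at least 1882.4-fold), followed by BASP1, CRMP1, a cytoskeletal protein of growing neurites, and FGF5, a growth factor, at least 1540.3-fold, 1056.9-fold and 1013.7-fold higher. SFRP1, a secreted WNT antagonist, had 35438, 37867 and 34797 counts against 0, 0 and 2, a ratio of 49579 (interval 13724 to 409392). PDPN (podoplanin), SPART, CDH6 (a cadherin) and TMEM47 also had 0 counts in LoVo TWIST1 shRNA and were at least 779.5-fold, 750.5-fold, 718.3-fold and 677.9-fold higher. In LoVo TWIST1 shRNA the highest bounds were those of HS3ST1, a heparan sulfate sulfotransferase (4474, 4771 and 5407 counts against 0, at least 1780.0-fold), and the basement membrane gene TINAGL1 (at least 1620.2-fold). TNS4 (a focal adhesion protein), MYH14 (a non-muscle myosin), SLC16A5 and TP53I11 were also at 0 counts in MDST8 WT, with bounds from 808.1-fold to 1235.0-fold. In LoVo shRNA control HS3ST1 was far lower, at 19.1 CPM against 273.

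By difference in CPM, which also grows with transcript length, cytoskeletal and matrix genes led in MDST8 WT. ACTB, the beta-actin gene, had 238876, 250259 and 245530 counts against 42941, 42216 and 46954, or 12493 ± 155 against 2453 ± 185 CPM (log2 fold change 2.35 ± 0.07). The actin-crosslinking gene FLNA was at 3822 against 968 CPM (1.98) and the non-muscle myosin MYH9 at 2909.8 against 926 CPM (1.65). HSPA8, a constitutive chaperone, was at 2561 against 383 CPM (2.74), with 1917 in LoVo shRNA control. In LoVo TWIST1 shRNA 7 of the 10 largest differences were mitochondrial genes, and the other three were KRT8, EEF1A1, a translation elongation factor (6145 against 10353 CPM, −0.75), and HMGA1, a chromatin protein (769 against 5347 CPM, −2.80).

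The study itself named 27 genes as TWIST1 targets, chosen partly on these libraries, so their direction here is not independent evidence. Of the 25 tested, 9 were higher in MDST8 WT, 10 in LoVo TWIST1 shRNA and 6 were not called (median 0.16). Beside SPON2, the protocadherin gene PCDHGC3 had 1435, 1531 and 1480 counts in MDST8 WT against 0, 0 and 2, a ratio of 2039 (interval 564 to 16842), the nuclear envelope gene SYNE1 was at 216 against 18.5 CPM (log2 fold change 3.54) and the lysophosphatidic acid receptor LPAR1 at 36.0 against 7.36 CPM (2.29). The amino acid transporter SLC7A5 was the largest in the other direction, with 337, 407 and 311 counts against 31778, 32296 and 36781 (−6.71 ± 0.10), followed by F3, or tissue factor, with 114, 136 and 152 against 6383, 5298 and 5313 (−5.52 ± 0.08). The cationic amino acid transporter SLC7A1 was higher on the same side (−1.95), as was the translation inhibitor PDCD4 (15.1 against 62.1 CPM, −2.04). TNFAIP3 (22.4 and 21.9 CPM) and SFXN2 (21.6 and 20.2 CPM) were not called.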

How the data were processed

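RNA-seq counts of 6 libraries were compared, MDST8 WT against LoVo TWIST1 shRNA, with 3 LoVo shRNA control libraries in the same fit. The deposited tables hold whole-number counts per gene, made by the authors with Trim Galore 0.6.6, HISAT2 2.1.0, SAMtools 1.6 and featureCounts 2.0.0 on hg38 and GENCODE v43 without a strand option. The deposited Length column, an exon length and no measurement, was not used for any test. Both tables were joined on the gene identifier, with 0 columns of per-sample values left unmatched, and Y-linked genes and XIST were left out (601 of 62703 genes). The TWIST1 ChIP-seq peaks were not used here.

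Genes were kept at a geometric mean of at least 1 RPM over the 6 libraries (offset 1), leaving 14586. TMM normalization and the quasi-likelihood test of edgeR 4.0.16 (R 4.3.3, limma 3.58.1) were fitted to the 9 libraries with 6 residual degrees of freedom, and p-values were adjusted by Benjamini-Hochberg over all genes tested. The call threshold was that of the study. Single genes were also given an exact permutation test on log2(CPM + 0.5). The fit was tested on simulated data for the same comparison and 14586 genes. There 93% of 100 genes changed by a log2 of 1 and 99% of 100 changed by 2 were called, with 7 unchanged genes called. Changes were simulated in equal numbers up and down, only in genes above a count limit, and all other genes were equal between groups. In the data 60.6% of genes were called, so these rates do not carry over to the comparison reported. Means, intervals and promoter matches used Python 3.11.15, SciPy 1.17.1 and pandas 2.3.3, and promoters came from the RefSeq table of GRCh38.p14, which held 430 of 646 named genes.

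Named genes were TWIST1, SPON2, SPP1 and CD44, per list up to 6 called members with the largest fold each way and 3 uncalled members with the smallest (lists of up to 15 whole), the 10 largest folds and the 10 largest CPM differences each way, chromosomes and runs of neighbours, and up to 6 promoters. KRT18 (as part of a list sum), HOXA6 and other genes that lost a call, and the CRB3 promoter were picked after values were seen, and some genes that the rule names are not reported here. Members and lists were chosen with earlier results of these data known. Alternatives were DESeq2 1.42.0, edgeR with RLE or upper-quartile scaling, mitochondrial genes left out, no filter or filterByExpr, limma-voom, limma on log2(count + 1), the 6 libraries alone, all 24 RNA libraries, and each library left out.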

Additional observations from a re-analysis of the deposited data

How the results depend on the processing

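No call reversed among the 397 called genes followed in every setting. Without a filter on low counts, 33443 genes were tested and 6046 were higher in MDST8 WT and 7360 in LoVo TWIST1 shRNA, 2946 and 4432 of them over 4-fold, from the larger number of genes. The other settings with all libraries gave 3827 to 5025 genes higher in MDST8 WT, 4133 to 5673 in LoVo TWIST1 shRNA, a TWIST1 log2 fold change of 3.15 to 3.37 (largest adjusted p 2.44e-09) and 1.73 to 1.99 for SPON2 (largest 2.93e-05). Leaving out each library in turn gave 4108 to 4300 and 4449 to 4729 genes, 1251 to 1487 and 1811 to 2170 over 4-fold, and a log2 fold change of 3.10 to 3.37 for TWIST1 (largest adjusted p 2.96e-11) and 1.58 to 2.1 for SPON2 (2.56e-05). Of all calls, 47.6% were higher in MDST8 WT in the reported fit and 42.9% under upper-quartile scaling (all-gene median −0.13). The share was 53.6% for limma on log2(count + 1) without normalization (median 0.10), where the test and the transformation changed together with the scaling.

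Of these 397 genes, 378 kept their call throughout and 19 lost it in at least 1 alternative, the largest of these being HOXA6 at −0.76, and they include CD44, FOXL1, PIK3R1, BNIP3, MMP11, LAGE3, MCM3 and CCNB2. Another 24 uncalled genes gained a call. Counts that grew by over 1.5 times with more genes tested were the intestinal genes higher in LoVo TWIST1 shRNA (15 to 23 with filterByExpr and 25 without a filter), cancer-testis genes higher in MDST8 WT (3 to 6 and 11), chemokines higher in LoVo TWIST1 shRNA (9 to 14) and MMP genes there (3 to 6). The single mismatch repair gene higher in LoVo TWIST1 shRNA became 2 with PMS2 under upper-quartile scaling or without MDST8 WT replicate C or LoVo TWIST1 shRNA replicate 1 or 3, and the 2 SPP1-list genes became 1 for limma without normalization. Low counts limit SPON2 and most genes named below 5 CPM. No paired analysis was possible because MDST8 WT libraries are labelled A, B and C and LoVo TWIST1 shRNA libraries 1, 2 and 3, so they share no replicate number.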

Other observations

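Cancer-testis antigen genes, which are normally read in the germ line, differed gene by gene. Of 35 in the list, 34 were in the tables, 6 passed the filter, and 3 were higher in each group (median 0.81, all tested genes −0.02). MAGEB2 had 2368, 2064 and 2242 counts in LoVo TWIST1 shRNA and 0 in every MDST8 WT and LoVo shRNA control library, at least 807.7-fold above MDST8 WT. MAGEA12 was the mirror, with 544, 588 and 556 counts in MDST8 WT and 0 in LoVo TWIST1 shRNA, at least 171.7-fold higher. The near-identical pair MAGEA3 and MAGEA6, between which reads can be split, went opposite ways, MAGEA3 at 56, 66 and 64 counts in MDST8 WT against 1371, 1310 and 1494 (log2 fold change −4.61) and MAGEA6 at 462, 500 and 512 against 23, 25 and 27 (4.16). PRAME was at 162, 33.7 and 2.15 CPM in MDST8 WT, LoVo TWIST1 shRNA and LoVo shRNA control.

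Some genes over 4-fold apart stood side by side along a chromosome. There were 30 runs of at least 4 neighbouring tested protein-coding genes past 4-fold in 1 direction, 15 each way, with 146 genes. The clustered protocadherins on chromosome 5, cell-surface adhesion proteins best known in neurons, formed 3 runs higher in MDST8 WT: 5 PCDHA genes (chr5:140794852-141012347, median log2 fold change 8.92), 11 PCDHB genes (chr5:141094606-141227759, 6.71) and 8 PCDHG genes (chr5:141330514-141512975, 7.66). The PCDHB run summed to 173 CPM in MDST8 WT, 3.00 in LoVo TWIST1 shRNA and 2.99 in LoVo shRNA control. Zinc finger genes of chromosome 19 gave 6 more runs higher in MDST8 WT. In one, ZNF583, ZNF471, ZFP28 and ZNF71 (chr19:56397966-56626481) had 0 counts in every LoVo TWIST1 shRNA library and summed to 53.3 CPM in MDST8 WT, and in another 9 genes from ZNF506 to ZNF85 (chr19:19785839-20950697) had a median of 6.56. A run of hair keratin and keratin-associated genes on chromosome 17 (KRTAP1-5, KRTAP2-3, KRTAP2-4, KRT33B and KRT34) summed to 130.5 CPM in MDST8 WT against 4.92 CPM.

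Among runs higher in LoVo TWIST1 shRNA, 6 kallikrein protease genes (KLK1, KLK5, KLK6, KLK7, KLK8 and KLK10, chr19:50819146-51020175) summed to 0.306 CPM in MDST8 WT, where 5 of them had 0 counts, 198 CPM in LoVo TWIST1 shRNA and 60.4 CPM in LoVo shRNA control. HOXA7 to HOXA13 (chr7:27153716-27200091) summed to 0.342 against 141 CPM, and the keratins from KRT80 to KRT18 on chromosome 12 to 82.9 against 4069 CPM. The EGF family ligands EREG, AREG and BTC lie with PARM1 in a run on chromosome 4 (43.5 against 734 CPM, and 860 CPM in LoVo shRNA control). The MHC class II genes HLA-DRA, HLA-DRB1 and HLA-DQB1, which cells that present antigen to helper T cells use, lay with TAP2 and GPSM3 in a run on chromosome 6 (median −3.45). Protocadherin, zinc finger and kallikrein genes have close paralogues, so the split of reads within a run is uncertain, and no cause of the runs was tested.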
